A study of Sus scrofa with 18 samples.

Results

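The right ventricular free wall of pigs was sampled before any coronary artery was tied, and the transcript levels of that non-failing muscle are described here. The samples are the 9 of the series' 18 whose titles end in Baseline, 1 from each of pigs 5, 6, 8, 9, 10, 11, 12, 13 and 14. The other 9 samples came from the same pigs after ligation of coronary arteries of the free wall. They were used only as a second sample of each animal, and no level was compared between the conditions.

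All of the pigs were crosses of mixed breed (Hampshire, Yorkshire and Swedish Landrace), and neither age nor sex is in the labels used here. The labels of the Baseline samples name no treatment beyond the sampling itself, and the labels come in 2 wordings. Those of pigs 5, 10 and 14 give a weight of 30 to 40 kg and define failure as a right atrial pressure above 20 mmHg. Those of the other 6 pigs give 120 min of ischemia for the second sample and no weight. Samples of whole muscle were measured, so that fewer cells of a type and less RNA per cell cannot be told apart.

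The free wall of the right ventricle pumps blood into the lungs at low pressure. Its bulk is ventricular cardiomyocytes, whose sarcomeres pair the slow beta myosin with ventricular light chains and cardiac troponins, and whose contraction is switched on and off by calcium released from and returned to the sarcoplasmic reticulum. The muscle works without pause on fatty acids, lactate and glucose burned in densely packed mitochondria, with creatine kinase and myoglobin buffering energy and oxygen. Fibroblasts, capillary endothelium, pericytes and resident macrophages lie between the muscle cells, and a blood-filled sample also carries RNA of young red cells and white cells.

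Each sample was hybridised to 1 porcine Affymetrix array, which reads the 3' end of transcripts with 24123 probe sets. Levels are the deposited log2 values per probe set, which ran from 2.08 to 15.17, with a median on each array between 5.60 and 5.66. After 188 control probe sets were left out, 23935 were used, and 6765 genes were named through 1 probe set each, the brightest. Any pair of the 9 arrays correlated at r = 0.972 to 0.992 over probe sets. Pig 5 stood apart: its mean correlation with the other arrays was 0.979, against 0.984 to 0.988 for the rest. In pig 5 the probe set at the 3' end of GAPDH also read 2.61 log2 above the one at the 5' end, a measure of how complete the RNA was, against 0.61 to 1.49 in the other 8 pigs. How far the completeness of the RNA bears on the values of pig 5 was not tested.

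The brightest genes at baseline were those of the contractile apparatus, its energy supply and protein synthesis. MYH7, the slow beta myosin heavy chain, was the brightest of all 6765 genes, at 14.96 ± 0.02 (SD, n = 9). It ranged from 14.93 in pig 5 to 15.01 in pig 10, with a median of 14.95, so that the animals could hardly be told from each other. The inhibitory troponin TNNI3 stood at 14.73 ± 0.06, the ventricular regulatory light chain MYL2 at 14.73 ± 0.08, the calcium-binding troponin TNNC1 at 14.38 ± 0.06 and the essential light chain MYL3 at 14.10 ± 0.12 (SD, n = 9). Cardiac actin ACTC1 (14.003 ± 0.09), titin TTN (13.69 ± 0.12), tropomyosin TPM1 (13.62 ± 0.18) and troponin T TNNT2 (13.59 ± 0.18) completed the sarcomeric genes among the brightest 30. The level of the 30th gene was 13.464 and that of the next 13.462, so the limit is arbitrary. MYH7 lay close to the highest reading of the arrays, 15.17, where an array compresses differences.

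Calcium is returned to the sarcoplasmic reticulum by the pump ATP2A2, at 13.94 ± 0.26, under the brake of phospholamban, PLN, at 13.30 ± 0.32 (SD, n = 9). PLN was lowest in pig 5 (12.52), with a median of 13.39 and a highest value of 13.64 in pig 12. The release channel RYR2 stood at 10.31 ± 0.48 and was likewise lowest in pig 5 (9.15; median 10.48; highest 10.74 in pig 6). The calcium store protein CASQ2 read 7.37 ± 0.59, again lowest in pig 5 (6.35). Pig 5 was thus the low animal in PLN, RYR2 and CASQ2, and in ATP2A2 as well (13.42), and it was the animal with the GAPDH difference of 2.61. The other probe sets of ATP2A2, with means of 5.38 to 7.40, correlated with the one shown at r = -0.28 to 0.17 over the pigs. They did not give the same order of animals. Of all named genes, 24.5% were lowest in pig 5. Sarcolipin, SLN, another regulator of the pump, was not: it read 5.39 there, against a mean of 4.98 in the other 8 pigs. Over the other 8 pigs the SD was 0.15 for PLN, 0.22 for RYR2, 0.48 for CASQ2 and 0.18 for ATP2A2. Over the 15 measured genes of calcium handling, the median level was 8.41.

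Energy genes took several of the other places among the brightest 30. The mitochondrial ADP/ATP carrier SLC25A4 read 14.06 ± 0.05, complex I subunit NDUFA4 13.97 ± 0.15, muscle creatine kinase CKM 13.89 ± 0.19, heart lactate dehydrogenase LDHB 13.81, the phosphate carrier SLC25A3 13.63 and ATP synthase subunit ATP5A1 13.59 ± 0.17 (SD, n = 9). FABP3, which carries fatty acids through the cytosol of cardiomyocytes, lay outside the 30 at 13.23 ± 0.17. GAPDH, a glycolytic enzyme, was the second brightest gene at 14.82 ± 0.06. TXNIP, an inhibitor of thioredoxin that rises with glucose, stood at 13.51 ± 0.09 and was as steady between animals as the sarcomeric genes.

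Brightness on such an array depends on the probes as well as on the transcript. In 2261 genes with more than 1 probe set, the brightest and dimmest probe sets of a gene differed by a median of 2.25 log2, and in 1256 of them (55.6%) by more than 2. The ranks are therefore ranks of brightness. GAPDH itself had other probe sets between 3.43 and 14.04, and cytoplasmic actin ACTG1 (14.49 ± 0.14) had others between 4.30 and 12.45. ZC3H10, a zinc finger gene, was among the brightest 30 through a probe set at 13.49, while its other probe set read 8.33. Of the brightest 30 genes, 19 were among the brightest 30 on every one of the 9 arrays. When the mean of all probe sets of a gene replaced the brightest, 33 of the brightest 50 genes were still among the brightest 50.

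Families were set against the brightest 5% of named genes, which held 338 genes down to a level of 11.01. By construction 5% of all named genes belong to it. Cytosolic ribosomal proteins, the building blocks of the ribosome, had 54 of 61 measured members there, with a median level of 12.71 beside 7.11 for all named genes. That count was 35 with the mean of all probe sets. RPS20 (13.95 ± 0.12) was the brightest of them. Mitochondrial ribosomal proteins, by contrast, had 0 of 58 members in the brightest 5% and a median level of 8.74.

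The respiratory chain was bright throughout. Complex I subunits had 23 of 32 measured members in the brightest 5%, subunits of complexes II to IV 12 of 14, and ATP synthase subunits 12 of 13, with median levels of 11.65, 12.55 and 13.04. Upstream of the chain, the tricarboxylic acid cycle had 11 of 24 members there (median level 10.72), glycolysis 10 of 21 (10.61) and fatty acid oxidation 9 of 33 (10.58). Thick and thin filament genes had 12 of 17 members and a median level of 13.59, and Z-disc and costamere genes 11 of 21. Other families lay low on the scale. Homeobox genes had a median level of 3.48, defensins and cathelicidins 4.12, cytochrome P450 enzymes 4.23 and potassium channels 4.86, and none of these families had a member in the brightest 5%.

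**Figure D1:**
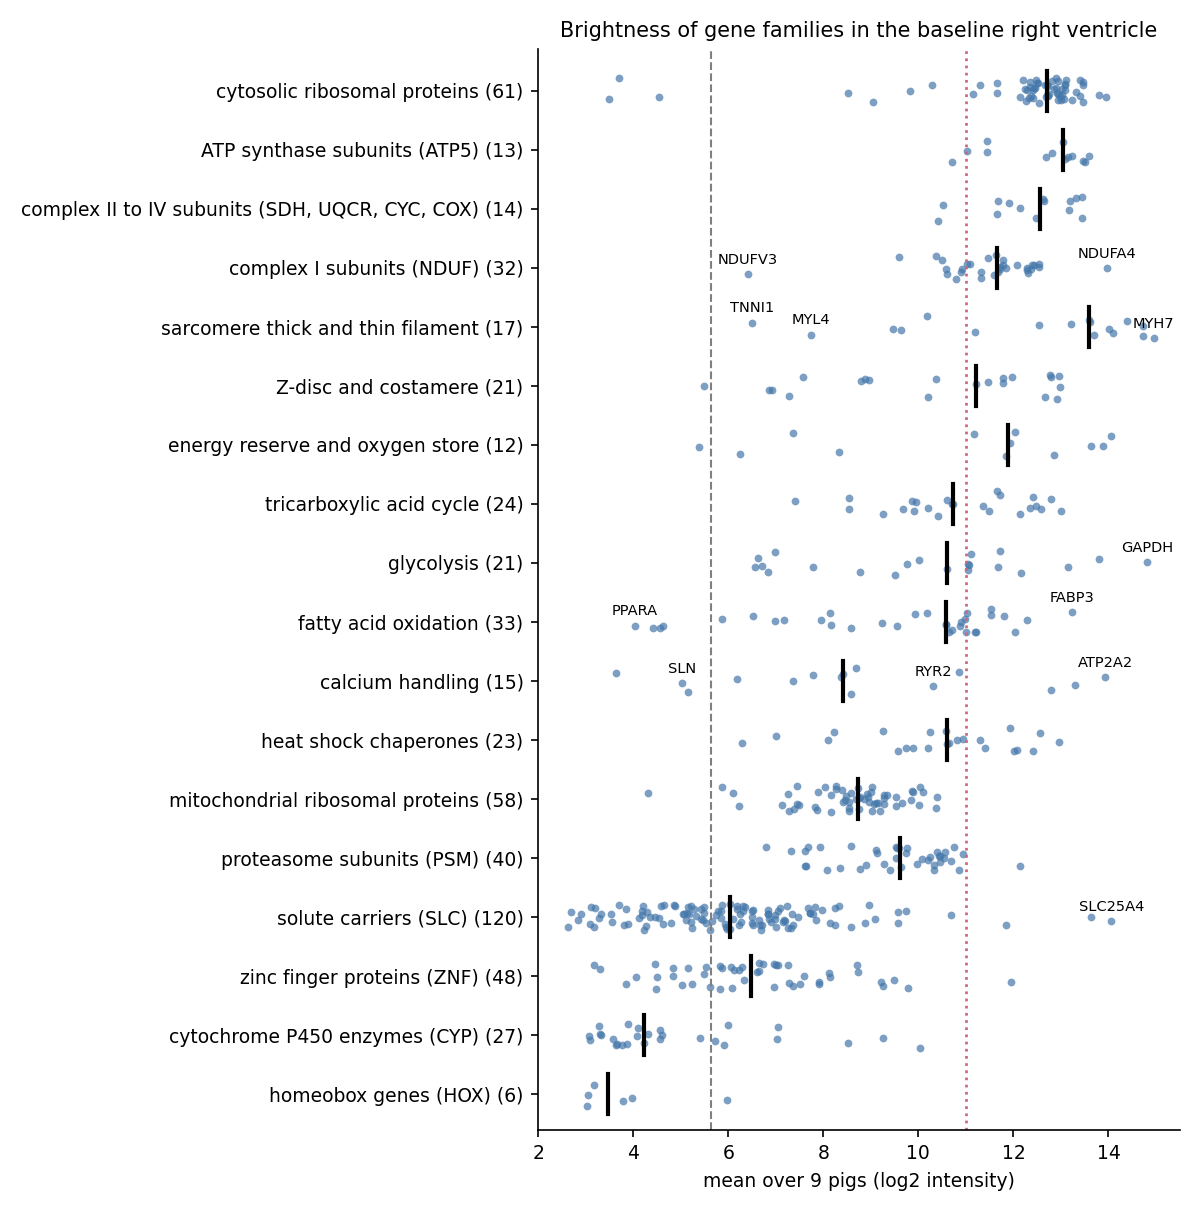
Mean log2 level over 9 Baseline arrays (horizontal axis) of every measured member of selected gene families, with 1 point per gene and a bar at the family median; the dotted line marks the limit of the brightest 5% of named genes (11.01) and the dashed line the median of all tested probe sets (5.64). ATP synthase subunits and cytosolic ribosomal proteins lie mostly to the right of the dotted line, and no homeobox gene or cytochrome P450 enzyme reaches it.

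The label of the tissue was checked against marker genes. A marker was counted as seen where its mean was above 5.64, the median level of all tested probe sets, a bar that 72.7% of named genes cleared. Of 26 measured markers of ventricular cardiomyocytes, 25 were above it, and the median marker read 13.07. SMYD1, a muscle methyltransferase, was the exception at 5.60. As a measure of background, 48 genes of other organs had a median level of 3.98, and 3 of them were above the bar: AMY2, an amylase (12.42), APOA1, the main protein of high-density lipoprotein (9.40), and GH1, growth hormone (6.41). Albumin, ALB, read 4.15 ± 0.29 and insulin, INS, 4.47.

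Atrial markers were mixed. PAM, an enzyme that amidates peptides and is abundant in atrial membranes, read 11.56 ± 0.29 and the secreted protein DKK3 9.11 ± 0.47, whereas sarcolipin, SLN, the atrial regulator of the calcium pump, read 5.03 ± 0.41 (SD, n = 9). In all, 7 of 12 measured atrial markers were above the bar, beside 72.7% of all named genes. The atrial light chain MYL4 was between 7.27 (pig 13) and 9.68 (pig 9), with a median of 7.42. Pig 9 was thus set off from the others in MYL4. It was also the highest in the atrial natriuretic peptide NPPA (10.53), in PAM (11.93) and in DKK3 (9.68, with pig 5 close at 9.66). Of the 12 atrial markers, 5 were highest in pig 9, beside 8.56% of all named genes. Others peaked elsewhere, SLN in pig 8 (5.52) and the natriuretic peptide NPPB in pig 5 (9.43). None of the 12 listed markers of the conduction system had a named probe set.

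Markers of the stroma were mostly above the bar. All 19 measured fibroblast markers were above the bar, with a median level of 8.61. They were led by the actin-severing protein GSN (12.56 ± 0.34), the collagen-binding proteoglycan decorin, DCN (12.46 ± 0.32), and lumican, LUM (10.85 ± 0.40). The collagen chains COL1A2 and COL3A1 read 7.05 ± 0.24 and 5.66 ± 0.34. Of 20 endothelial markers, 17 were above the bar, but their median level of 7.13 was close to the 7.11 of all named genes. CAV1, which shapes caveolae, read 12.91 ± 0.27, the water channel AQP1 11.87 ± 0.22 and the junction protein PECAM1 10.05 ± 0.30. The VEGF receptor KDR was at 3.63 ± 0.27. All 14 markers of smooth muscle and pericytes were above the bar, among them desmin, DES (11.47), which cardiomyocytes also make, the pericyte gene RGS5 (10.91) and smooth muscle actin, ACTA2 (10.80).

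White cell markers were dimmer, with median levels of 6.66 for macrophages, 4.62 for T and NK lymphocytes and 4.13 for neutrophils. Macrophage markers were above the bar in 10 of 14 cases, no larger a share than the 72.7% of all named genes. They were led by the protease CTSS (10.18 ± 0.25), the complement chain C1QC (8.60 ± 0.47) and the haemoglobin scavenger receptor CD163 (8.46 ± 0.27). T and NK lymphocyte markers were above it in 2 of 14, with CD3E, a chain of the T cell receptor complex, at 4.86 ± 0.27 and the cytotoxic granule protein GNLY at 7.27 ± 0.40. Of 9 neutrophil markers none was above it, and the abundant neutrophil protein S100A8 read 3.99 ± 0.19. Of 22 listed red cell markers 6 were measured, and 4 of these were above the bar, no larger a share than among all named genes. Their median level of 7.32 was close to the 7.13 of endothelial markers and the 7.11 of all named genes. The erythroid haem synthesis enzyme ALAS2 read 8.57 ± 0.79, beta globin HBB 8.06 ± 0.46, the globin HBM 7.68 ± 0.71 and the globin chaperone AHSP 6.97 ± 0.82 (SD, n = 9).

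Markers of skeletal muscle had a median level of 4.21, and 4 of 15 were above the bar. These were ENO3, the muscle enolase (13.15 ± 0.25), slow troponin T TNNT1 (9.85 ± 0.75), the fast light chain MYL1 (8.02 ± 0.97) and slow troponin I TNNI1 (6.50 ± 0.85). Fast myosin MYH2 (3.28) and the myogenic factor MYOD1 (3.42) were not. The adipocyte hormone ADIPOQ read 3.52 ± 0.10, whereas FABP4 (10.99 ± 0.32) and LPL (10.99 ± 0.76), which capillaries and muscle also make, were bright.

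**Figure D2:**
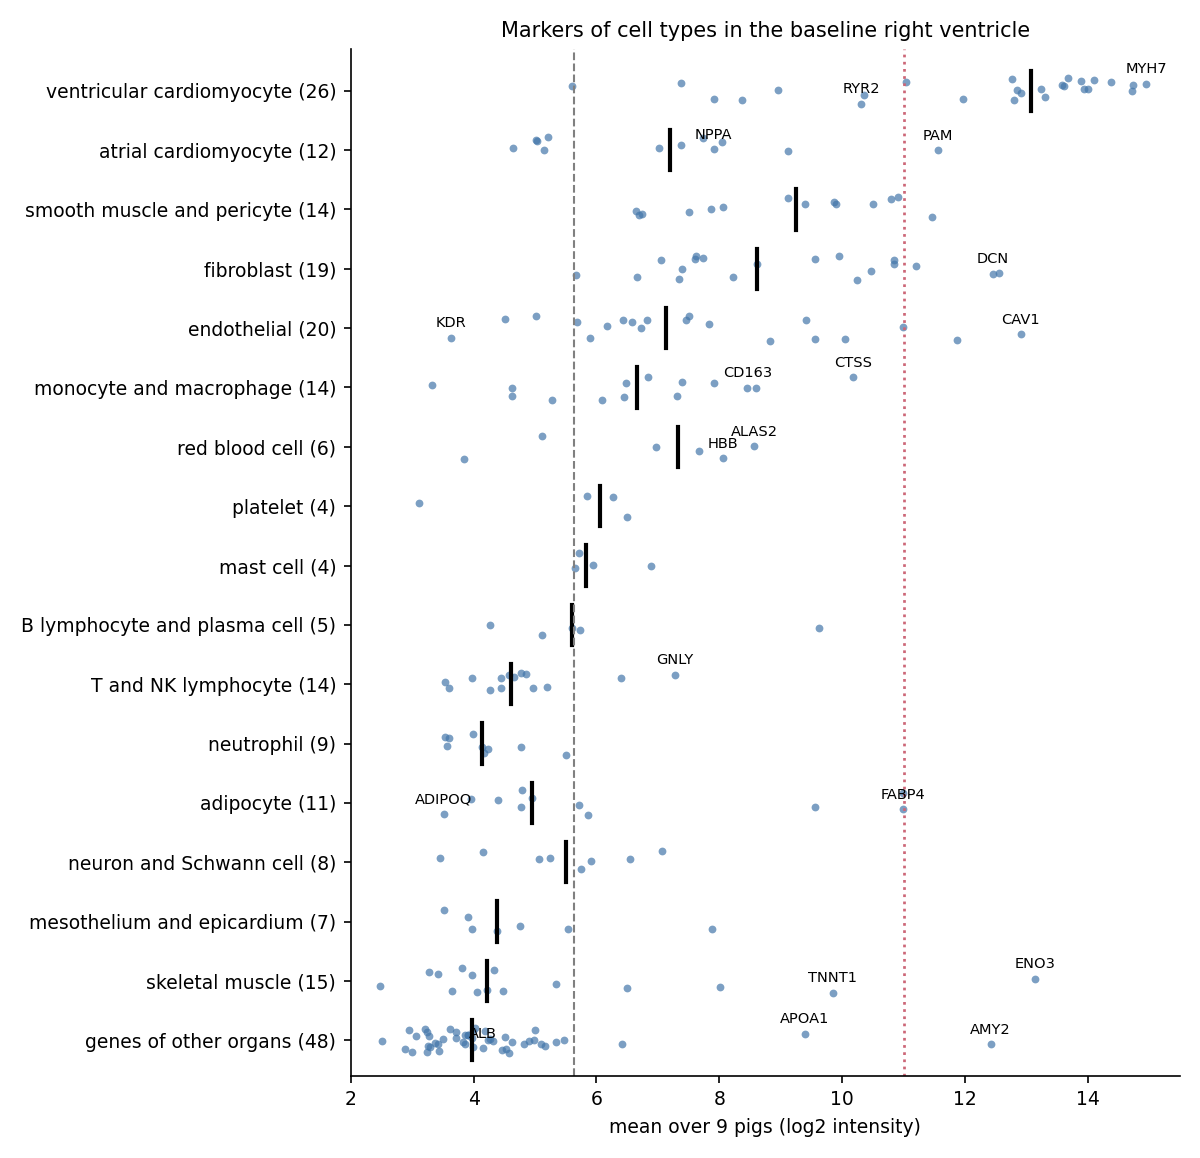
Mean log2 level over 9 Baseline arrays (horizontal axis) of the measured markers of each cell type, with 1 point per gene and a bar at the median of each list; the dashed line is the median of all tested probe sets (5.64) and the dotted line the limit of the brightest 5% of named genes (11.01). Ventricular cardiomyocyte markers have a median of 13.07, and genes of other organs, neutrophil and lymphocyte markers have medians left of the dashed line.

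Most genes differed little between the 9 animals. The median SD over named genes was 0.21 log2, and its 5th and 95th percentiles were 0.10 and 0.49. An SD above 1 was seen in 34 of 6765 genes (0.503%). The spread hardly followed brightness, with a median SD of 0.17 in the dimmest of 10 equal bins and 0.20 to 0.22 in the other 9. Cytosolic ribosomal proteins were the steadiest family described here, with a median SD of 0.12 and 0 of 61 members in the most variable 5%, to which 5% of all named genes belong. Among genes of middle to high brightness, the regulatory phosphatase subunit PPP4R3B had the smallest SD, 0.04 around a mean of 9.11, and the 10 steadiest also included the DNA topoisomerase TOP2B (SD 0.06), the deubiquitinase USP7 and the histone methyltransferase partner WDR82.

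The genes that varied most fell into a few kinds: a sex-chromosome gene, acute inflammatory mediators, immediate early genes, interferon-stimulated genes, cardiac stress genes and single genes without company. EIF1AY, a translation initiation factor gene of the Y chromosome, had the largest SD, 3.16. It read 8.34 in pig 5, 9.20 in pig 6, 8.66 in pig 8, 9.05 in pig 10 and 8.86 in pig 11, but 2.48 in pig 9, 2.29 in pig 12, 2.87 in pig 13 and 3.96 in pig 14. The values thus fell into separate groups of 5 and 4 pigs. Its X-linked counterpart EIF1AX read 9.74 on average, and SRY, the testis-determining gene of the Y chromosome, was between 3.16 and 3.50 in every pig.

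Acute inflammatory mediators, the cytokines, chemokines and adhesion molecules induced within hours by injury, had 15 of 26 measured members among the most variable 5%. IL6, a cytokine, was lowest in pig 5 (3.62), with a median of 6.06 and a highest value of 9.37 in pig 6. Pig 10 was close to pig 6 at 8.82. Pigs 5, 11 and 12 were below 5 and thus below the bar of 5.64, so no fold is given. The pattern recognition protein PTX3 ran from 5.36 in pig 12 to 10.89 in pig 10 around a median of 6.22, with pig 6 at 10.33 and the other 7 pigs below 8. The monocyte attractant CCL2 ranged from 7.81 (pig 12) to 12.79 (pig 10), with a median of 9.77. Both neutrophil attractants were highest in pig 10: CXCL2 read 7.85 to 12.17 around a median of 10.22, and CXCL8 2.65 to 7.28 around 4.004. Prostaglandin synthase PTGS2 reached 6.50 in pig 10 and 6.31 in pig 6 from a median of 4.42, and endothelial selectin SELE 6.59 in pig 6 and 6.44 in pig 10 from a median of 4.69. Pigs 6 and 10 were thus high across this group.

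Over the 26 mediators, 15 were highest in pig 10, where 10.6% of all named genes were highest. The median member lay 0.94 above its own mean in pig 10 and 0.44 above in pig 6. In pig 12, 14 of the 26 were lowest, beside 10.3% of all named genes, and the median member lay 0.73 below its mean there and 0.68 below in pig 11. Among white cell markers, the median neutrophil marker stood 0.07 below its mean in pig 10 and 0.04 above in pig 6, and the median T and NK marker 0.04 above and 0.18 below. In pig 10, however, 5 of 14 T and NK markers were highest, beside the same 10.6%, and all 5 B lymphocyte and plasma cell markers were above their own means, by a median of 0.21. Most of these markers lay below the bar, so that they say little about how many white cells a sample held, and the part of such cells in the mediators was not tested.

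Relations between pairs of genes were tested over the 9 pigs with an exact permutation test of all pairings, two-sided, for 18 pairs, and p-values were adjusted over those 18. The pairs were chosen with earlier results of these data known, so the p-values are not independent evidence. IL6 went with CXCL8 at r = 0.938 (adjusted exact permutation p = 0.0051, rho = 0.90, adjusted exact p = 0.028). It went with CCL2 at r = 0.900 (adjusted exact permutation p = 0.0075, rho = 0.85, adjusted exact p = 0.036) and with PTGS2 at r = 0.879 (adjusted exact permutation p = 0.0097, rho = 0.817, adjusted exact p = 0.048). Without pigs 6 and 10, the farthest from the median of IL6, these r were 0.914, 0.789 and 0.663, so the relation with CXCL8 rests least on them. After such pairs of pigs were left out, no relation passed the adjusted test, in which 7 pigs remained. Over the 6 pigs of the larger label set alone, the 3 r were 0.989, 0.946 and 0.958. The other label set has 3 pigs, too few for a correlation.

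Immediate early genes, transcription factors and regulators that cells switch on within minutes of a stimulus, had 14 of 23 measured members among the most variable 5%. The stress-induced repressor ATF3 ran from 7.83 (pig 11) to 12.20 (pig 9) around a median of 10.29, a range of 20.7-fold. It was above 11.8 in pigs 5, 9 and 10 and below 9 in pigs 11, 12 and 13. CYR61, a secreted matricellular protein, was highest in the same 3 pigs, from 8.27 (pig 11) to 11.71 (pig 10) around 9.88, and IER5 ran from 7.86 (pig 11) to 11.02 (pig 9) around 9.83. The AP-1 subunit FOS had another profile, from 8.43 in pig 11 to 12.35 in pig 6 around a median of 10.99. BTG2, an antiproliferative gene, ranged from 8.60 (pig 12) to 11.81 (pig 9) around 10.67. Pigs 11 and 12 were the low animals of the group, although pig 13 read below pig 12 in ATF3 (7.84 against 8.82) and in IER5 (8.59 against 8.72).

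In pig 10, 9 of the 23 immediate early genes were highest, and in pig 9 another 8, where 8.56% of all named genes were highest. The median member lay 0.70 above its mean in pig 10 and 0.62 above in pig 9, against 0.77 below in pig 11 and 0.67 below in pig 12. FOS and the zinc finger factor EGR1 correlated at r = 0.817 (adjusted exact permutation p = 0.023), but rho was 0.65 (adjusted exact p = 0.15) and r was 0.391 without pigs 11 and 12. The adjusted exact permutation p was 0.104 without pig 11, 0.0664 without pig 12 and 0.0523 without pig 9, and r was 0.926 over the larger label set. FOS and ATF3 did not pass (r = 0.577, adjusted exact permutation p = 0.16, rho = 0.55). Other members spread less: JUN, another AP-1 subunit, read 11.28 ± 0.50, and RHOB, a small GTPase, 11.48 ± 0.40.

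Interferon-stimulated genes, the antiviral programme that cells turn on in response to interferon, set pig 10 apart. All 20 measured members were highest in that pig, beside 10.6% of named genes. The median member lay 2.02 log2 above its own mean in pig 10 and within 0.77 of it in the other 8. ISG15, a ubiquitin-like modifier, read 13.11 in pig 10 and 7.40 to 9.19 in the others. RSAD2, an antiviral enzyme, read 11.01 against 6.89 to 8.53, the RNA sensor DDX58 9.49 against 5.72 to 6.55, IFIT3 10.77 against 6.99 to 8.15 and the GTPase MX1 10.68 against a median of 7.72. In each of these genes the value of pig 10 lay outside the range of the other 8 pigs. Of the 20 members, 17 were in the most variable 5% of genes, but only 4 when pig 10 was left out. The list was written with earlier results of these data known, so the count describes the pig and is not independent evidence.

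OAS1, which makes the second messenger that activates RNase L, differed in a further way. It was highest in pig 10 (9.54), but lowest in pig 13 at 3.79, while the other 7 pigs read 6.41 to 7.77. More generally 14 of the 20 interferon-stimulated genes were lowest in pig 13, beside 6.99% of all named genes. MX1 and ISG15 correlated at r = 0.941 (adjusted exact permutation p = 0.032), but rho was 0.467 and r was 0.497 without pigs 5 and 10, so that the relation rests on pig 10. Its adjusted exact permutation p was 0.314 without pig 10, 0.0868 without pig 13 and 0.0539 without pig 12, and r was 0.602 over the larger label set. Genes outside the list with a like profile included PLAC8, expressed in leukocytes (10.03 in pig 10, 6.26 to 7.81 in the others), and the immunoproteasome subunit PSMB8 (8.99 in pig 10). RSF1, a chromatin remodelling factor, also peaked in pig 10 at 11.92, but only in 1 of its 3 probe sets: the others correlated with it at -0.15 and -0.08 over the pigs.

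**Figure D3:**
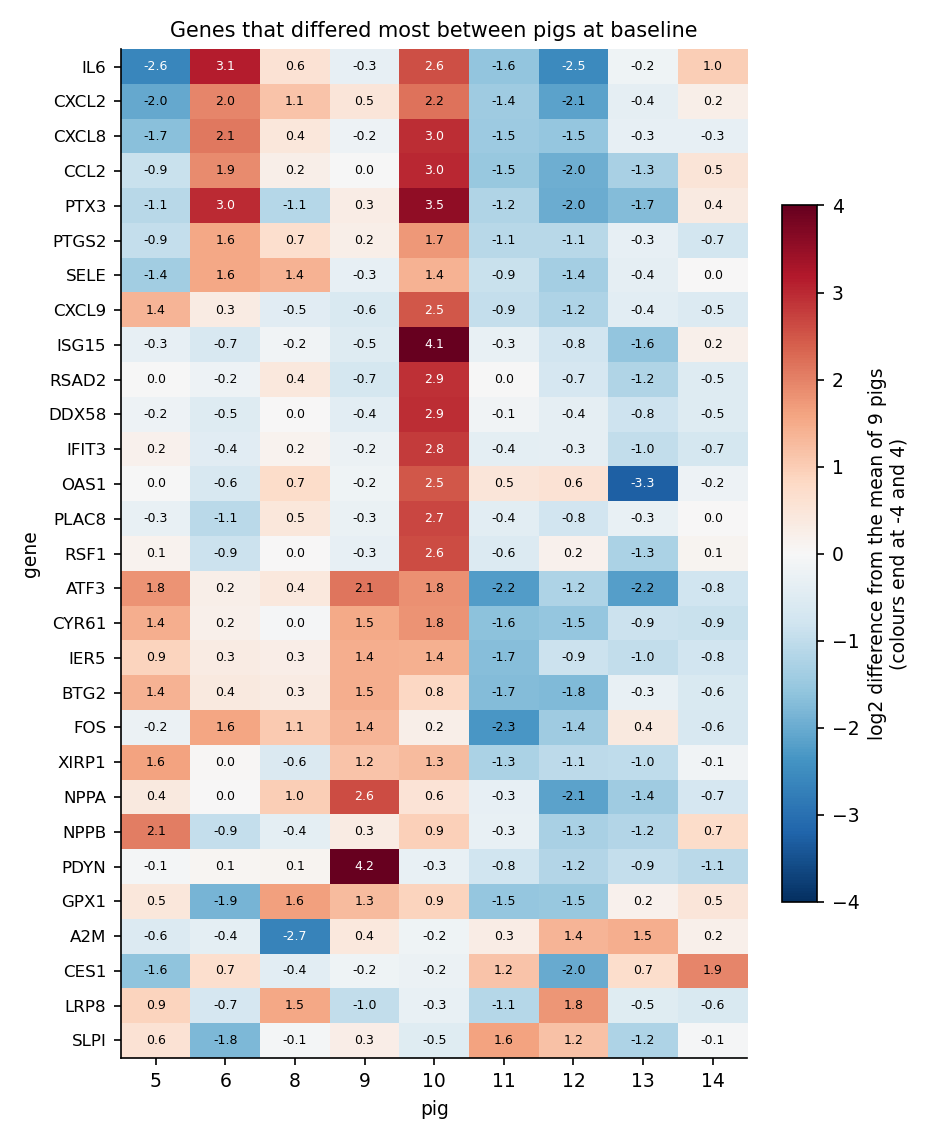
Log2 difference of each pig (columns) from the mean of the 9 Baseline arrays for the most variable named genes (lines of the grid), with EIF1AY left out. Pig 10 is high in interferon-stimulated and inflammatory genes and pig 6 in inflammatory genes. Pigs 11, 12, 13 and 14 are below the mean in ATF3, CYR61 and IER5, with pig 11 the lowest in each.

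Natriuretic peptides, hormones that cardiomyocytes release when the wall is stretched, varied, and NPPA and NPPB did not pass as a pair over the 9 pigs. NPPA ran from 5.77 in pig 12 to 10.53 in pig 9 around a median of 7.94, a range of 27.1-fold. NPPB ran from 6.09 in pig 12 to 9.43 in pig 5, the pig with the highest GAPDH difference, around a median of 7.08, and without pig 5 the highest value was 8.31, in pig 10. Both were lowest in pig 12 but peaked in different pigs, and their r was 0.472 (adjusted exact permutation p = 0.28, rho = 0.533). Over the 6 pigs of the larger label set r was 0.913, an alternative in which the relation passed. XIRP1, an actin-binding protein of the intercalated disc, ran from 9.09 (pig 11) to 11.97 (pig 5) around 10.22, high in the same pigs 5, 9 and 10 as ATF3. ANKRD1, a titin-bound stretch sensor, spread much less, from 12.50 to 13.54.

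Several of the most variable genes belonged to no described group. PDYN, the precursor of the dynorphin peptides, read 9.21 in pig 9 and 3.83 to 5.11 in the other 8. GPX1, a selenium enzyme that removes peroxides, was 7.89 in pig 6, 8.22 in pig 11 and 8.26 in pig 12, and 9.92 to 11.40 in the other 6. The protease inhibitor A2M was 5.20 in pig 8 and 7.30 to 9.32 elsewhere, and SLPI, another inhibitor of proteases, ran from 6.95 (pig 6) to 10.35 (pig 11) around 8.67. CES1, a carboxylesterase, ran from 4.70 (pig 12) to 8.66 (pig 14) around 6.54. LRP8, a lipoprotein receptor, was 7.08, 7.73 and 7.96 in pigs 5, 8 and 12 and below 6 in the other 6. CLU, a secreted chaperone, was 7.89 in pig 14 and 9.94 to 10.93 in the other 8. Of the 30 most variable genes, 5 had further probe sets, 8 in all, and 3 of those 8 followed the one shown at r above 0.8, for PTX3, DDX58 and IER5.

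Erythroid genes varied as well, although their number is small. ALAS2 ran from 7.71 (pig 12) to 9.88 (pig 8) around 8.63, and AHSP from 6.05 (pig 13) to 8.62 (pig 8) around 6.77. They went together at r = 0.907 (adjusted exact permutation p = 0.0051, rho = 0.883, adjusted exact p = 0.028) and at 0.825 without pigs 8 and 12, and r was 0.900 over the larger label set. HBB did not follow them: it was lowest in pig 5 (7.19) and highest in pig 12 (8.73), and its r with ALAS2 was -0.693 (adjusted exact permutation p = 0.062, rho = -0.683; 0.0410 without pig 8 and 0.0302 after quantile normalization). Its r with the GAPDH difference was -0.722 (adjusted exact permutation p = 0.058, rho = -0.45), which passed without pig 14 (0.0269) or pig 8 (0.0465) and after quantile normalization (0.0490), and r was 0.178 without pigs 5 and 11.

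Pig 5 had a profile of its own across cell types. In it 14 of 19 fibroblast markers were highest, 20 of 31 genes of the extracellular matrix, 11 of 15 collagens and 10 of 14 macrophage markers, beside 21% of all named genes. The median fibroblast marker lay 0.59 above its mean. Fibronectin, FN1, read 11.84 in pig 5, with a median of 10.43 and a lowest value of 9.42 in pig 10. Fibrillin, FBN1, reached 12.17 in pig 5 from a median of 10.94, and SPARC, a matrix glycoprotein, 13.99 from a median of 13.25. Pig 10 was the lowest in all 3 of these genes.

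The same animal was the lowest in mitochondrial genes. Of the tricarboxylic acid cycle 21 of 24 members were lowest in pig 5, beside 24.5% of all named genes, and the median member lay 0.53 below its mean. Mitochondrial ribosomal proteins were lowest there in 44 of 58 cases, fatty acid oxidation genes in 22 of 33 and ventricular cardiomyocyte markers in 15 of 26. SDHC, an anchor subunit of succinate dehydrogenase, read 8.96 in pig 5 around a median of 10.58, and complex I subunit NDUFS1 10.10 around 11.22. LPL, the lipase of capillary walls, read 9.25 in pig 5 around a median of 11.04. Pig 12 lay at the other end: 19 of 24 genes of the cycle were highest there, beside 16.1% of all named genes.

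The same animals were at the ends of the GAPDH difference, which was highest in pig 5 (2.61) and lowest in pig 12 (0.61). After quantile normalization 16 fibroblast markers were highest in pig 5 and 11 cycle genes in pig 12. PLN correlated with the difference at r = -0.891 (adjusted exact permutation p = 0.034, rho = -0.467), but at -0.000303 without pigs 5 and 11. The adjusted exact permutation p was 0.402 without pig 5, 0.127 without pig 11, 0.0956 without pig 12 and 0.0509 without pig 9. The part of RNA completeness and of the share of stroma in the profile of pig 5 was not tested.

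Endothelial markers were highest in pig 5 in 10 of 20 cases, beside 21% of all named genes, and lowest in pig 10 in 10 of 20, beside 11.2%. A gene can be in both counts, as PECAM1 was. PECAM1 and the cadherin CDH5, both of endothelial junctions, went together at r = 0.858 (adjusted exact permutation p = 0.0097, rho = 0.80, adjusted exact p = 0.0498) and at 0.661 without pigs 6 and 10. The adjusted exact permutation p was 0.0615 without pig 10 alone, and r was 0.744 over the larger label set. In pig 10 PECAM1 was 9.48 and CDH5 9.004, the lowest of the 9 pigs in each. PDK4, the kinase that turns pyruvate dehydrogenase off in favour of fatty acids, ran from 11.27 (pig 12) to 12.94 (pig 10) around 12.18, and its r with ANGPTL4, an inhibitor of LPL, was 0.727 (adjusted exact permutation p = 0.058, rho = 0.703), which passed without pig 13 (0.0171) or pig 6 (0.0291).

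Protective proteins were bright. Heat shock chaperones, which keep other proteins folded, had 8 of 23 measured members in the brightest 5%, a median level of 10.61 and a median SD of 0.28, beside 0.21 for all named genes. The small heat shock protein CRYAB, abundant in heart, read 12.96 ± 0.28, the constitutive HSPA8 12.56 ± 0.24 and the cytosolic HSP90AA1 12.41 ± 0.23 (SD, n = 9). In 10 of the 23 the highest value was in pig 10, beside 10.6% of all named genes, and in 9 the lowest was in pig 5, beside 24.5%. Without pig 5 the median SDs were 0.26 for the chaperones and 0.18 for all named genes. HSPH1, a nucleotide exchange factor of the chaperone cycle, ran from 7.54 (pig 14) to 9.18 (pig 10) around a median of 8.44. In the second samples 14 of the 23 were highest in pig 10, beside 9.21% of all named genes, and HSPH1 repeated at r = 0.954 (adjusted exact permutation p = 0.024; up to 0.0964 without pig 5, 10 or 14).

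Antioxidant genes had a median level of 9.16, with 25 of 28 measured members above the bar, and 6 of the 28 were among the most variable 5%. SELENOP, which carries selenium, read 12.13 ± 0.18, the mitochondrial peroxiredoxin PRDX3 11.80 ± 0.38 and the mitochondrial superoxide dismutase SOD2 11.20 ± 0.57 (SD, n = 9). SOD2 was lowest in pig 5 (9.83) and highest in pig 12 (11.70), and so were PRDX3 (10.95 and 12.15) and catalase, CAT (9.58 and 11.24). These 3 genes thus had their extremes in the pigs with the highest and the lowest GAPDH difference. Without pig 5 the lowest values were 10.84, 11.53 and 10.27. GPX1 did not share that profile.

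Genes of antigen presentation were clearly measured, at a median level of 8.87 over 18 members. B2M, the light chain of class I molecules, was among the 30 brightest genes at 13.46 and spread more than its neighbours there (SD 0.50), from 12.94 in pig 12 to 14.37 in pig 8. Its other 8 probe sets had SDs of 0.14 to 0.63 and correlated with the one shown at r = -0.36 to 0.50 over the pigs, so that they did not give the same order of animals. The class I gene SLA-3 read 11.13 ± 0.39 and the class II chain SLA-DRA 9.40 ± 0.30 (SD, n = 9). TAP1, the peptide transporter of class I loading, ran from 7.76 (pig 14) to 9.84 (pig 10), and PSMB8 from 6.02 (pig 13) to 8.99 (pig 10). Class II chain SLA-DRA and the invariant chain CD74 did not pass as a pair (r = 0.416, adjusted exact permutation p = 0.32, rho = 0.60).

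**Figure D4:**
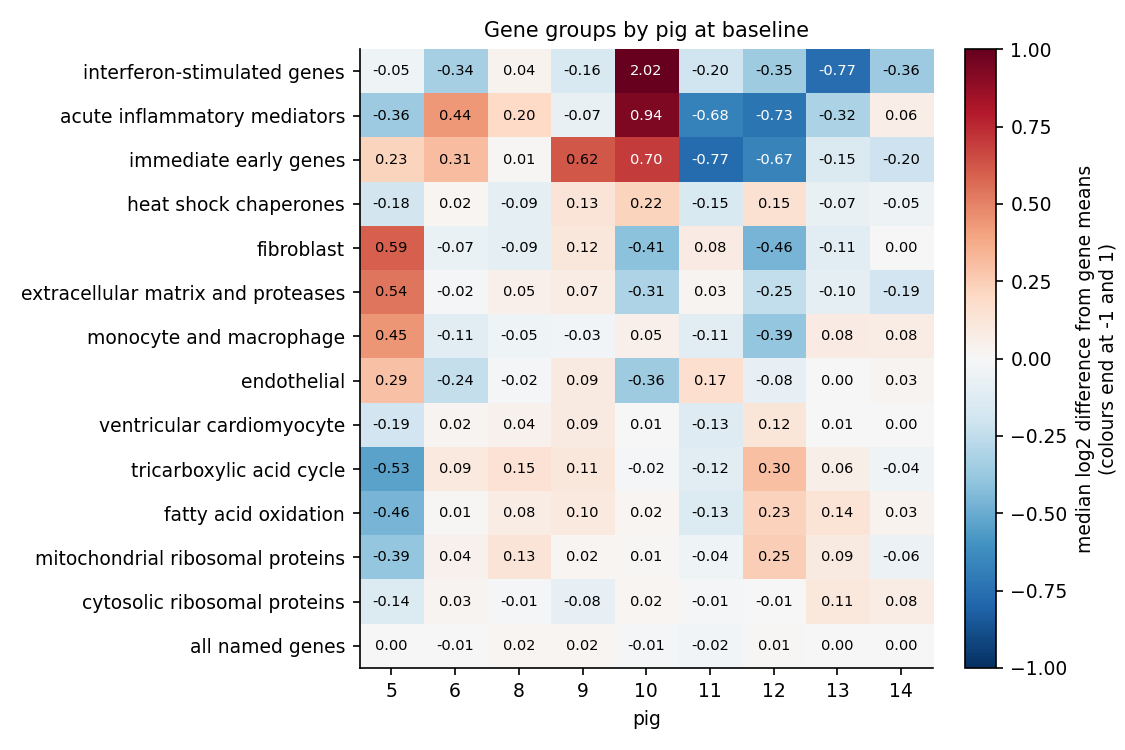
Median log2 deviation of the members of each gene list (lines of the grid) from their own means in each of the 9 Baseline samples (columns). Interferon-stimulated genes reach 2.02 in pig 10, fibroblast markers 0.59 in pig 5, and the tricarboxylic acid cycle runs from -0.53 in pig 5 to 0.30 in pig 12.

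Whether differences between animals held was asked of the second sample of each pig, taken after ligation. For each probe set the 9 Baseline values were correlated with the 9 second values, with an exact permutation test of all pairings of pigs, two-sided, and Benjamini-Hochberg adjustment over 23935 probe sets. The ranking by SD had used the Baseline samples alone. Of all probe sets 2171 passed at an adjusted p of 0.05 (9.07%), 2 of them with a negative r, and of the named genes 855 of 6765 (12.6%). The median r was 0.511 over probe sets and 0.610 over named genes. In 24 of the 50 most variable genes the test passed, with a median r of 0.885. That count was 13 by Spearman's rho and 4 to 19 with 1 pig left out, 4 without pig 5 and 8 without pig 10. In the least variable of 10 equal bins of genes, 17 of 677 passed, with a median r of 0.365. In the most variable bin 239 of 677 did (35.3%), with a median r of 0.804.

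The call depends on single animals. Without pig 5, in which the GAPDH difference was also the highest among the second samples (3.55), 50 probe sets passed, and without pig 10, 227. Leaving out any other pig gave between 666 (pig 8) and 1438 (pig 9) calls, with 8 pigs in each test. The lowest r between a pig's own 2 samples, over all tested probe sets after centring on the means, was 0.449 and the highest 0.750. For 9 of 9 pigs the second sample of the same pig was the best match. How much of this comes from RNA quality, which both samples of pig 5 share, was not tested.

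Single genes differed widely in how well they repeated. OAS1 had r = 0.992 (adjusted exact permutation p = 0.012, rho = 0.983, adjusted exact p = 0.023), and r was 0.928 without pigs 10 and 13, its extremes. GPX1 had r = 0.981 (adjusted exact permutation p = 0.012, rho = 0.983, adjusted exact p = 0.023) and 0.972 without pigs 6 and 11. Both calls held whichever pig was left out, with an adjusted exact permutation p of at most 0.0471 and 0.0409. The animals high in OAS1 or GPX1 at baseline were thus high again in the second sample.

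LRP8 (r = 0.981, adjusted exact permutation p = 0.014), SLPI (r = 0.973, adjusted exact permutation p = 0.014) and ATF3 (r = 0.964, adjusted exact permutation p = 0.019) had rho of 0.967, 0.983 and 0.967. Without pig 5 the adjusted exact permutation p of the 3 genes was 0.0544 to 0.0552, and it stayed below the threshold without any other pig. IFIT3 (r = 0.947, adjusted exact permutation p = 0.015) missed the threshold without pig 5 or pig 10, and A2M (r = 0.935, adjusted exact permutation p = 0.018) without pig 5, 8, 12 or 13, the largest p being 0.0666 and 0.0552. CYR61, IER5, XIRP1, CES1, PLAC8 and RSF1 passed with r between 0.880 and 0.9703. Each of these 6 missed it without pig 5, without pig 10 and without 3 to 6 further pigs, with a p of up to 0.156.

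Few of the inflammatory mediators repeated, 1 of 26 beside 12.6% of all named genes. IL6 had r = 0.480 (adjusted exact permutation p = 0.34, rho = 0.467), PTX3 r = 0.685 (adjusted exact permutation p = 0.14, rho = 0.767), CXCL2 r = 0.309 (adjusted exact permutation p = 0.57, rho = 0.333) and SELE r = -0.0093 (adjusted exact permutation p = 0.99, rho = 0.033). The one that passed was TNFAIP6, a hyaluronan-binding protein (r = 0.859, adjusted exact permutation p = 0.039), and it missed the threshold without any 1 of 8 pigs, all but pig 9 (p up to 0.0942). The median r of the mediators was 0.524. The natriuretic peptides did not pass, at r = 0.555 for NPPA and 0.126 for NPPB, nor did FOS at 0.568. That a p missed the threshold does not show that the animals changed places.

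By group, 10 of 20 interferon-stimulated genes passed (median r 0.897), 10 of 18 genes of the major histocompatibility complex and antigen presentation (0.861), 9 of 23 heat shock chaperones (0.838), 12 of 33 fatty acid oxidation genes (0.817), 7 of 23 immediate early genes and 5 of 24 cycle genes. Of T and NK markers 0 of 14 passed and of red cell markers 0 of 6. These counts stand beside 12.6% for all named genes, but beside 35.3% in the most variable of 10 equal bins. The median member lay at the 99.1 percentile of SD for interferon-stimulated genes and at the 97.9 percentile for immediate early genes. In the second samples 17 of 20 interferon-stimulated genes were again highest in pig 10, where 9.21% of all named genes were highest, and the median member lay 1.45 above its mean. ISG15 nevertheless did not pass (r = 0.946, adjusted exact permutation p = 0.097), and its r was -0.07 without pigs 10 and 13, so that its repeat rests on those animals. Fibroblast markers were again highest in pig 5 in 11 of 19 cases, beside 20.6% of all named genes. Inflammatory mediators were highest in pig 10 in 2 of 26 cases after 15 at baseline.

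**Figure D5:**
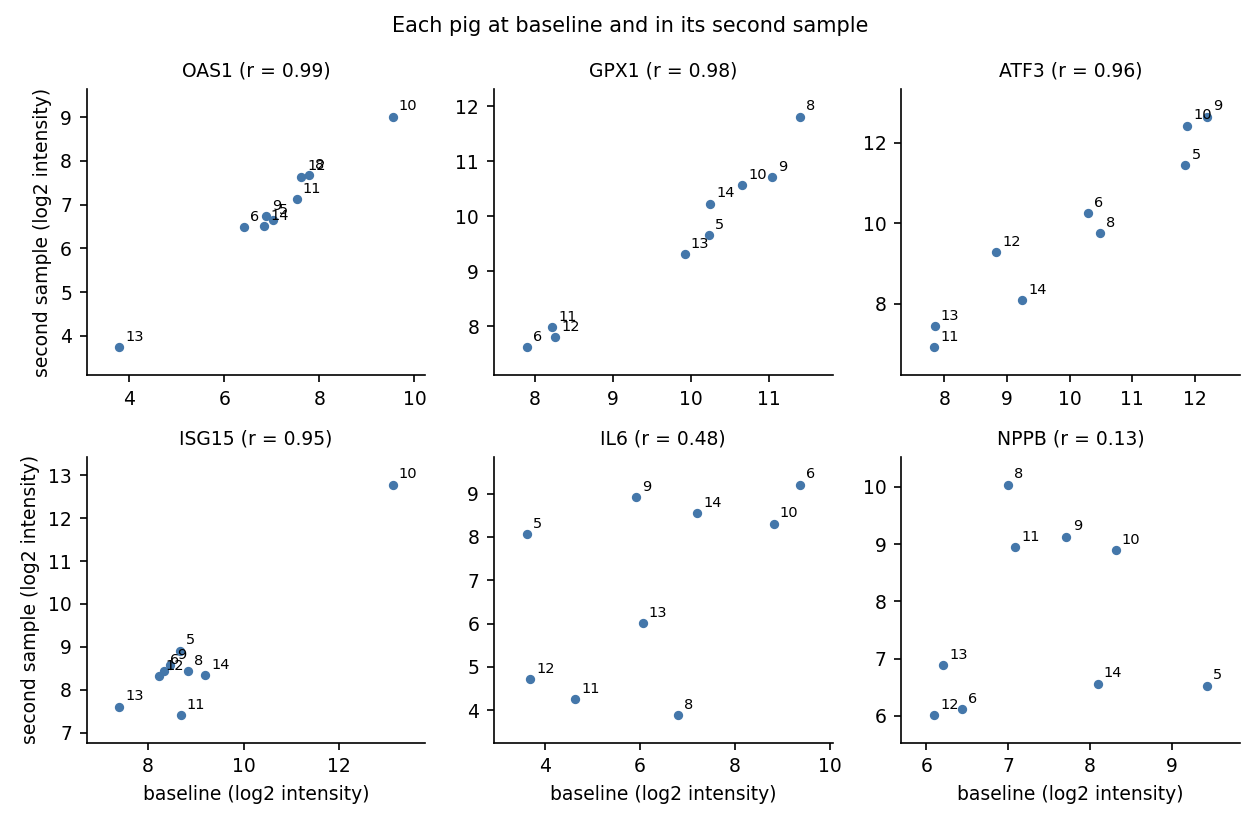
Baseline log2 value (horizontal axis) against the value in the second sample of the same pig (vertical axis) for selected genes, with 1 point per pig and the pig's number beside it. OAS1 and GPX1 lie close to a line (r = 0.992 and 0.981), IL6 does not (r = 0.480), and ISG15 is drawn out by pig 10.

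The 2 wordings of the labels were compared at baseline with limma, 3 pigs against 6. Of 23935 probe sets 5 differed at an adjusted p of 0.05 (0.0209%), and 3 of the 5 were higher in pigs 5, 10 and 14. SLA-2, a class I histocompatibility gene, read 11.36 ± 0.19 in those 3 pigs and 10.30 ± 0.21 in the other 6, a difference of 1.06 log2 (SE 0.14, limma adjusted p = 0.043). FOLH1B, a folate hydrolase gene, read 7.21 ± 0.20 and 8.15 ± 0.13, a difference of -0.94 log2 (SE 0.12, limma adjusted p = 0.043). The other 3 probe sets have no gene name. The identifiers of 2 of them, with differences of 1.14 and 1.15 log2, share the cluster number of the SLA-2 probe set. The 3 probe sets that were higher in pigs 5, 10 and 14 may therefore not be separate genes. Class I genes are near copies of each other and differ between animals in sequence, which a probe set can read as a difference in level. The comparison holds few pigs: without pig 5, 2 probe sets passed, and without any other single pig none did by limma, where 2431 to 4707 had an unadjusted p of 0.05 or less.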

How the data were processed

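The deposited table holds 1 log2 value per probe set and array, of 18 arrays, with no column left unassigned. Trizol and RNeasy columns were used to extract RNA and the GeneChip 3' IVT Express kit to label it, per the labels' protocols. The submitters' processing notes name Partek. How background was removed and arrays were normalized is not given in the sources used here, so how far the deposited log2 values were evened out between arrays is unknown.

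Probe sets named AFFX or RPTR were left out. Of 23935 others, 10069 had 1 gene symbol in the platform annotation, 198 several and 13668 were not listed there. Of the named ones, 9961 matched a RefSeq gene ID (Sscrofa 11.1), which changed 0 symbols. The probe set with the highest mean over the 9 Baseline arrays stood for a gene.

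The genes named are the 30 brightest, the 30 with the largest SD, the 15 with the largest SD among bright genes, the 10 with the smallest SD between the 50th and 95th percentile of brightness, the 10 that repeated best, the 5 with the smallest label-set p, the tested pairs, and members of 39 lists and 31 families where their list is described. Not all of these are spelled out. The members, lists and pairs were chosen with earlier results of these data known.

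Levels, SDs and list counts are descriptions. Tests were exact permutations over all pairings of 9 pigs for correlations (Python 3.11.15, numpy 2.4.6, numba 0.67.0), and lmFit with eBayes for label sets (limma 3.58.1, R 4.3.3), all two-sided with Benjamini-Hochberg adjustment. The permutation and limma steps were tested on simulated data. The pig numbers in the labels pair the samples, since both samples of a number come from 1 animal, and each Baseline sample correlated best with its own second sample in 9 of 9 pigs (r = 0.449 to 0.750). The number of arrays limits the precision.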

Additional observations from a re-analysis of the deposited data

Results flagged for a closer look

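Of the 146 genes examined one by one, 25 (17.1%) had a pig whose distance to its nearest neighbour took up more of the whole range of the 9 Baseline values than is common for samples of 1 group. By chance about 1 in 20 groups gives such a gap, but many of the 146 genes were chosen for a large SD over the same 9 values, which such a gap enlarges. The share of 17.1% can therefore not be read against that rate, and genes of 1 programme are not independent of each other.

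Pig 10 was far above the others in 10 genes. The gap made up 0.78 of the range for DDX58, 0.693 for IFIT3, 0.687 for ISG15, 0.685 for MX1, 0.644 for TAP1, 0.633 for RSF1, 0.602 for RSAD2, 0.589 for PLAC8 and 0.562 for PSMB8. The last was MYH7, at 0.577, where pig 10 read 15.01 and the others 14.93 to 14.97, so that the gap is small in size.

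Pig 5 was far below the others in 8 genes of calcium handling, mitochondria, lipid supply and potassium channels: RYR2 (0.624 of the range), ATP5A1 (0.611), SLC25A3 (0.58), PLN (0.579), LPL (0.548), SOD2 (0.539), KCNE1 (0.53) and KCNJ5 (0.509). This is the pig with the GAPDH difference of 2.61 log2 between the 3' and 5' probe sets.

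Pig 9 was far above the others in PDYN (0.762) and MYL4 (0.671). Pig 8 was far below them in TXNIP (0.589) and A2M (0.51) and above them in SRY (0.494), where all values lay between 3.16 and 3.50. Pig 13 was low in ACTG1 (0.544; 14.16 against 14.41 to 14.62) and pig 14 in CLU (0.676; 7.89 against 9.94 to 10.93).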

How the results depend on the processing

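Some alternatives (list counts and marker counts under other settings) were chosen after seeing the data. A correlation changed sign in 16 alternatives of 7 genes and pairs, none past the threshold with all pigs or in the alternative. For repeatability these alternatives did not include leaving out the 2 farthest pigs. That step changed the sign for ISG15 with its second sample (0.946, and -0.07 without pigs 10 and 13). It did so for several other genes, among them EIF2AK2 (0.796 to -0.0759), CD3E (0.522 to -0.152) and ACTA2 (0.348 to -0.295). The r of SELE with its second sample (-0.0093) was 0.0333 by rho, 0.00136 after quantile normalization, 0.0629 on residuals and -0.158 to 0.403 with 1 pig left out, and that of NPPB (0.126) -0.0593 to 0.463. The r of S100A8 with S100A9 (-0.426) was 0.0258 in the larger label set, and that of CD3E with CD2 (0.0871) -0.246 without the 2 farthest pigs and -0.257 to 0.323 with 1 left out. The r of the GAPDH difference without its 2 farthest pigs was 0.676 with IL6 (from -0.371), 0.585 with FOS (from -0.149) and 0.178 with HBB (from -0.722), and with IL6 it was 0.0665 in the larger label set and -0.626 to 0.141 with 1 left out. With the mean of all probe sets of a gene, 33 of the 50 brightest genes and 35 of 54 ribosomal proteins in the brightest 5% were left. Of the 50 most variable genes, the interquartile range kept 26 and the median absolute deviation 28, and leaving out 1 pig kept 34 (pig 10) to 47. Members among the most variable 5% numbered 4 to 19 for interferon-stimulated genes, 14 to 18 for inflammatory mediators and 12 to 17 for immediate early genes when 1 pig was left out. Residuals on the GAPDH difference gave 0 fibroblast markers highest in pig 5 and 5 cycle genes highest in pig 12, and quantile normalization 11 of the latter. Pig 5 has a leverage of 0.818 on that line (of at most 1), which draws its residuals towards 0 by construction, so the first count says nothing about RNA quality.

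Repeatability was called in 407 probe sets by Spearman's rho, in 50 (pig 5) to 1438 (pig 9) with 1 pig left out, and in 9015 by a limma F-test with the pig as a replicate block over both conditions. Label sets gave 1 call with the GAPDH difference as a covariate and 0 to 2 with 1 pig left out. Of 18 relations 8 passed with all pigs, 0 without the 2 farthest pigs and 5 to 10 with 1 left out. The brightest genes (48 to 50 of 50) and markers above the bar (25 to 26 cardiomyocyte, 18 to 19 fibroblast, 17 endothelial, 3 of other organs) hardly moved. For single genes and pairs, 70 repeatability and 22 relation values lost their call, 3 and 8 gained one, and 330 and 177 kept their sign and their side of the threshold. Apart from what a smaller number of pigs does to a test, the cause was not tested.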

Other observations

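Ion channels and junctions of the ventricular muscle were unevenly visible. The gap junction protein GJA1, which couples ventricular cardiomyocytes, read 12.23 ± 0.36 (SD, n = 9), the sodium pump subunit ATP1B1 12.06 ± 0.24 and the potassium channel partner KCNIP2 10.59 ± 0.24. KCNJ2, which carries the inward rectifier current of ventricular muscle, read 3.31 ± 0.13, below the median of all probe sets. KCNJ5, KCNJ8 and KCNE1 were each lowest in pig 5, the pig with the highest GAPDH difference, at 8.72, 8.74 and 8.25. The lowest of the other 8 pigs were 9.56, 9.10 and 8.96. ATP1B1 was lowest in pig 5 too (11.57), as were 24.5% of all named genes. KCNIP2 read 10.66 in pig 5, above its mean. KCNJ2 was lowest in pig 10 (3.13), and GJA1 in pig 11 (11.65, with pig 5 at 11.68).

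Genes that respond to low oxygen and to steroid hormones were bright in part. The angiogenic factor VEGFA read 10.32 ± 0.30 (SD, n = 9), HIF1A 9.81 ± 0.19 and erythropoietin, EPO, 3.06 ± 0.09. ADM, a vasodilator peptide, spread most of these, from 6.83 in pig 12 to 9.11 in pig 10. Among 16 glucocorticoid targets, PDK4 (12.16 ± 0.62), GLUL (11.16 ± 0.18) and the clock gene PER1 (11.14 ± 0.22) were lowest in pig 12. So were 10.3% of all named genes. TXNIP, the brightest of the 16, was lowest in pig 8 (13.29) and read 13.52 in pig 12. The clock gene ARNTL ran from 4.72 in pig 12 to 6.26 in pig 10, and it repeated in the second samples (r = 0.920, adjusted exact permutation p = 0.015; up to 0.0566 without pig 5 or 10).

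The 3 most variable probe sets of all had no gene name in the annotation used here and divided the pigs as EIF1AY did. The first of them had an SD of 4.01 and read 10.44 in pig 9, 10.61 in pig 12, 10.53 in pig 13 and 10.61 in pig 14, against 2.72 to 3.35 in pigs 5, 6, 8, 10 and 11. The third, with an SD of 3.56, ran the other way, at 9.76 to 10.57 in those 5 pigs, 2.71 to 2.98 in pigs 9, 12 and 13, and 5.40 in pig 14. Pig 14 was likewise the highest of the 4 low pigs in EIF1AY, at 3.96.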
